A study of Homo sapiens with 36 samples.

Results

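The unfolded protein and ATF4 stress genes were examined as 36 genes of the 27852 in the table. They were chosen by symbol for their known roles, but with earlier results of these data known. They were grouped into 6 arms: 13 ER chaperones and folding genes, 3 genes of ER-associated degradation, 6 transcription factors, 5 feedback and stress effectors, 6 genes of amino acid synthesis and one-carbon metabolism, and 3 amino acid transporter genes. All 36 symbols were in the table. Of these, 35 had an estimated count of at least 100 in some library and were tested, while CHAC1, whose highest count was 88.9, was not. The transcript levels came from poly-A selected RNA of human prostate cancer (PCa) cell lines, and the study asked how contact through a shared medium with bone-forming or bone-resorbing cells alters PCa cells. C4-2 and its bone-metastatic subline C4-2B were the lines labelled osteoblastic (BPCa), and DU145 and 22Rv1 were the lines labelled osteolytic (LPCa).

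For each line, 3 mono-cultures without RANKL, 2 co-cultures with MG63 without RANKL, 2 mono-cultures with RANKL at 50 ng/mL, and 2 co-cultures with RAW264.7 with RANKL at 50 ng/mL were sequenced after 5 days. MG63, of human osteosarcoma origin, stood in for osteoblasts (OB), RAW264.7 is a mouse monocyte line that RANKL drives towards osteoclasts (OC), and the partner cells grew in a neighbouring well behind a filter, so the RNA was that of the PCa side. The lines carried no engineered allele by the labels, and nothing in the labels said whether replicates were separate cultures, so the p-values measure only the spread between these samples, which may be technical. As line checks, the summed level of 6 prostate luminal markers, in estimated counts scaled to a library total of 1000000 (CPM), was 6678 to 6919 in C4-2 mono-cultures and 965 to 1037 in those of 22Rv1. In DU145 it was 26.6 to 29.2 CPM, so these markers were nearly absent from that line.

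The unfolded protein response is set off when misfolded proteins build up in the endoplasmic reticulum (ER). Its sensors IRE1, PERK and ATF6 raise the chaperones and the degradation machinery of the ER through spliced XBP1 and cleaved ATF6, while PERK phosphorylates eIF2 and so slows translation in general but favours that of ATF4. ATF4 is also reached from other eIF2 kinases, such as GCN2 when amino acids run short, and it raises the genes that make and import amino acids as well as DDIT3 (CHOP), TRIB3 and CHAC1.

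The promoters of HSPA5 (chr9:125241344-125241593, minus strand), HERPUD1 (chr16:56931892-56932141, plus strand) and ASNS (chr7:97872409-97872658, minus strand) are shown as those of a chaperone gene, a degradation gene and an amino acid synthesis gene. Each is the 250 bases before the gene's start from RefSeq, build GRCh38.p14, written 5′ to 3′ on the gene's strand, and the capitals mark matches to the motifs named after them, on either strand.
HSPA5: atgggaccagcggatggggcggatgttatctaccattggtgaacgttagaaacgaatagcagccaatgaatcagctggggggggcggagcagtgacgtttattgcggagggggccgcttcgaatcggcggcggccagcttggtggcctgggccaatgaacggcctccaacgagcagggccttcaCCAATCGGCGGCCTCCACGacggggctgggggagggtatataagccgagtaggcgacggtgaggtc
HERPUD1: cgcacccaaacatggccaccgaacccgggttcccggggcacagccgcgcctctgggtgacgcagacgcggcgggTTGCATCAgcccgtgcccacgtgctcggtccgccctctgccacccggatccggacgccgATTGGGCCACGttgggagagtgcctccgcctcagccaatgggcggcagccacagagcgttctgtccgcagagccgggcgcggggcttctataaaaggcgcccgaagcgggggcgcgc
ASNS: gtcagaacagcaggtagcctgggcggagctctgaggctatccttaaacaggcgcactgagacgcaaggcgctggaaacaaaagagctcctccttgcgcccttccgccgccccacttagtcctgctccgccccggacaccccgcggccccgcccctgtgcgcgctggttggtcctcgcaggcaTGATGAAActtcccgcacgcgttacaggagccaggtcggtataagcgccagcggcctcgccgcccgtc

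The ER stress response element (ERSE), searched on both strands as CCAAT and CCACG with 9 bases of any kind between them, was in the same 250-base window of 25 of 27305 RefSeq genes (0.0916%) and in 7 of the 31 members that had a promoter entry, namely HSPA5, HSP90B1, PDIA6, CALR, CANX, CRELD2 and XBP1. ERSE-II, searched as ATTGG and CCACG with 1 base of any kind between them, was in 18 genes (0.0659%) and in 3 members, SDF2L1, HYOU1 and HERPUD1. The C/EBP-ATF response element (CARE), searched as TGATGNAA, was in 1061 genes (3.89%) and in 3 members, HERPUD1, CHAC1 and ASNS. In this form ERSE and ERSE-II do not overlap each other in any member's window, and HERPUD1 was the only member with both an ERSE-II and a CARE match. The windows below give, with 10 bases on each side and the match in capitals, the ERSE of XBP1 (chr22:28800593-28800631), of HSP90B1 (chr12:103930206-103930244) and of PDIA6 (chr2:10812843-10812881), the ERSE-II of HYOU1 (chr11:119057264-119057294) and of SDF2L1 (chr22:21642104-21642134), and the CARE of CHAC1 (chr15:40953252-40953279), shown as examples of each element outside the full promoters.
XBP1: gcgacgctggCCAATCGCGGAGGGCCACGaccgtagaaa
HSP90B1: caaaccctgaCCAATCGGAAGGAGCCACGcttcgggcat
PDIA6: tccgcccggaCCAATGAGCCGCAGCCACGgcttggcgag
HYOU1: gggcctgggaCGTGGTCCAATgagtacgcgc
SDF2L1: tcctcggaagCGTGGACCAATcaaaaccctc
CHAC1: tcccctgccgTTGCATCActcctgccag

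PDIA3, NUPR1, SHMT2, PSPH and SLC7A11 had no promoter entry and are named only. A match is a run of letters, not a measured binding site.

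Mono-cultures without RANKL held 23932472 to 36719047 estimated counts and the other 24 libraries 9593426 to 15418211, so in every comparison with these mono-cultures depth and culture cannot be told apart. For that reason, the mono-cultures with RANKL (10097501 to 13373083) were used as a second, depth-closer control of the MG63 co-cultures (10418452 to 15397563), and that comparison differs in RANKL as well. Replicate 2 of DU145 with MG63 stood apart from replicate 1: members differed by a median of 0.41 on the log2 scale, against 0.039 to 0.12 in the other 23 same-group pairs, so the DU145 results with MG63 that follow are repeated without it. Scaling by library totals in place of TMM moved the median log2 fold change of all genes most in C4-2 with MG63, from -0.0085 to -0.12, and CPM values carry such shifts, whereas fold changes are from the TMM-scaled fit. In bulk RNA, fewer cells that express a gene and less of its RNA per cell cannot be told apart.

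In mono-culture without RANKL the members were most abundant, per transcript length, among the chaperones. On the TPM scale, which divides counts by transcript length before the same scaling, and averaged over the lines, CALR, a calcium-binding lectin chaperone, stood at 762, HSP90B1, the ER form of HSP90, at 609, ATF4 at 439.8, and SHMT2, a mitochondrial serine-to-glycine enzyme, at 327. CHAC1, a glutathione-degrading ATF4 target, at 1.5, the sensor ATF6 at 2.16, the cystine importer SLC7A11 at 3.93 and SESN2, a brake on mTORC1, at 4.23 were the lowest. The members thus spanned over 2 orders of magnitude in level within the same cells.

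Between the lines, DU145 had the lower level for most members. Against 22Rv1, 27 of 35 members were lower and 7 higher in DU145 (edgeR's quasi-likelihood test, adjusted p under 0.05), where 79.6% of all genes were called, 39.1% higher and 40.5% lower, and 17 members were over 2-fold lower, as were 19.6% of genes. NUPR1, a stress-induced chromatin protein, was at 5.41, 7.24 and 9.44 CPM in DU145 and at 254, 227 and 247 CPM in 22Rv1 (log2 difference -5.03 ± 0.19 (SE), adjusted p = 3.88e-13). ASNS, which makes asparagine, was at 23.1, 25.2 and 23.5 CPM in DU145 against 306, 282 and 309 CPM in 22Rv1 (log2 difference -3.63 ± 0.069 (SE), adjusted p = 8.72e-17). No library of one line overlapped those of the other for either gene. DDIT3, the pro-death factor CHOP, differed by -2.64 ± 0.084 and HERPUD1, which helps assemble the ER ubiquitin ligase, by -2.29 ± 0.14 on the log2 scale, again lower in DU145. HSPA5 (-0.58 ± 0.065), ATF4 (-1.17 ± 0.067), XBP1 (-1.39 ± 0.11) and TRIB3 (-1.57 ± 0.19) were lower in DU145 too. STC2, a secreted glycoprotein and ATF4 target, ran the other way, with 94.6, 96.8 and 102 CPM in DU145 and 16.6, 14.7 and 15.9 CPM in 22Rv1 (log2 difference 2.65 ± 0.082).

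For the mean of the LPCa lines against that of the BPCa lines, 9 members were higher and 19 lower, where 79.8% of all genes were called, 40.4% higher and 39.4% lower. Each side of this comparison is 2 lines with 3 libraries each, and C4-2B is a subline of C4-2, so its test measures the spread between libraries and not that between lines. The largest differences of the means were in NUPR1 (-2.81), in PHGDH, the first enzyme of serine synthesis (-2.58), and in PPP1R15A, the eIF2 phosphatase subunit GADD34 (2.35, higher in LPCa). The NUPR1 difference was that of DU145, since 22Rv1 overlapped C4-2, which was at 244, 275 and 251 CPM, and C4-2B was at 294, 332 and 312 CPM. PHGDH was at 31.4, 29.9 and 32.4 CPM in DU145 and 173, 158 and 167 CPM in 22Rv1, both below C4-2 (416, 425 and 425 CPM) and C4-2B (401, 413 and 399.6 CPM). For PPP1R15A both LPCa lines, at 27.1, 26.1 and 26.6 CPM in DU145 and 20.9, 21.7 and 19.2 CPM in 22Rv1, were above every library of the BPCa lines. The related lines C4-2B and C4-2 differed in 7 members, 5 higher and 2 lower in C4-2B, where 13.6% of all genes were called, 7.41% higher and 6.24% lower, with SLC7A5, the leucine transporter LAT1, 0.83 ± 0.078 and the secreted ER protein MANF 0.52 ± 0.14 on the log2 scale. MANF lost its call in 5 of the 6 fits that left out 1 library (adjusted p 0.0566 to 0.0768), and 4 members were called without C4-2 replicate 1, where 9.52% of all genes were called. The share of members called for LPCa against BPCa, 28 of 35, is near the background of that comparison.

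In the MG63 co-cultures of 22Rv1, unfolded protein and ATF4 genes were lower in every arm. Of the 35 members tested, 27 fell and the estimates of all 35 lay below 0, where 20.4% of all genes were called, 11.2% higher and 9.18% lower. The median log2 fold change of the members was -0.64, against 0.001 for all genes tested, and 6 members fell more than 2-fold, as did 0.811% of all genes. By arm, 10 of 13 chaperones and folding genes fell (median -0.51), 3 of 3 degradation genes (-0.99), 2 of 6 transcription factors (-0.36), 3 of 4 effectors (-0.84), 6 of 6 synthesis genes (-0.75) and 3 of 3 transporters (-0.87). CALR, SDF2L1, CRELD2, XBP1, ATF6, CEBPB, NUPR1 and PPP1R15A were not called. Of the 5 fits that left out 1 library, MANF lost its call in 5, TRIB3 in 4, PSPH in 2, and HSP90B1, PDIA3, PDIA6, CANX, EDEM1 and SHMT2 each in 1.

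Among the chaperones, HSPA5 (BiP), the ER's HSP70 and the protein that keeps the sensors silent, was at 628, 611 and 659.5 CPM in the mono-cultures of 22Rv1, at 333 and 313 CPM with MG63, and at 849 and 856 CPM in the mono-cultures with RANKL. Its level with MG63 was below every library of both controls, with a log2 fold change against mono-culture without RANKL of -0.86 ± 0.074 (SE), adjusted p = 1.7e-06. HYOU1, which exchanges nucleotide on HSPA5, had 14.9, 22.6 and 22.1 CPM without and 7.13 and 6.37 CPM with MG63 (-1.44 ± 0.30 (SE), adjusted p = 0.00321). DNAJB9, a co-chaperone that restrains IRE1, had 19.8, 18.4 and 21.4 CPM without and 9.24 and 8.37 CPM with MG63 (-1.06 ± 0.087 (SE), adjusted p = 9.63e-07). The groups did not overlap in either gene, where 44.6% of all genes were lower in every MG63 library than in every mono-culture. HYOU1 had the widest error of the genes named here. HSP90B1 (-0.68), DNAJC3 (-0.64) and PDIA4, a disulfide isomerase (-0.63), also fell. Summed over the 13 genes of the arm, chaperone transcripts took 6838 to 7181 CPM in mono-culture, 4453 to 4880.0 with MG63, 8474 to 8626 in mono-culture with RANKL and 8472 to 8759 with RAW264.7. The MG63 co-cultures of 22Rv1 were thus the low end of the line, and both RANKL cultures the high end.

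In the degradation arm, HERPUD1, whose promoter holds both element types, was at 185, 168 and 176 CPM in mono-culture, 60.5 and 61.5 CPM with MG63 and 221 and 244 CPM with RANKL (-1.42 ± 0.15 (SE), adjusted p = 1.31e-05 against mono-culture). SEL1L, the scaffold of the HRD1 ligase, was at 67.0, 65.2 and 64.8 CPM without and 30.9 and 30.4 CPM with MG63 (-0.99 ± 0.087 (SE), adjusted p = 1.95e-06). EDEM1, which routes misfolded glycoproteins to disposal, had a log2 fold change of -0.49 ± 0.11. All 3 genes of this arm fell.

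Of the transcription factors, ATF4 was at 650.1, 609 and 633 CPM in mono-culture, 321 and 320.4 CPM with MG63 and 538 and 518 CPM with RANKL (-0.87 ± 0.076 (SE), adjusted p = 1.95e-06). DDIT3 followed the same order, at 150.5, 126 and 141 CPM, 61.3 and 66.4 CPM and 134 and 119.7 CPM (-1.01 ± 0.092 (SE), adjusted p = 2.43e-06). For XBP1 the values were 162, 164 and 163 CPM, 129 and 132 CPM and 179.6 and 174 CPM, without overlap between MG63 and mono-cultures, but the fold change of -0.21 ± 0.12 had an adjusted p of 0.252 and was not called. In both called genes the MG63 libraries lay below every control library. ATF4 is regulated largely at translation, so its transcript level is one part of its activity.

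Among the effectors, STC2 had 16.6, 14.7 and 15.9 CPM in mono-culture and 7.41 and 7.35 CPM with MG63 (-0.98 ± 0.11 (SE), adjusted p = 1.78e-05), but the mono-cultures with RANKL had 7.01 and 6.12 CPM, so its fall depended on the control. TRIB3, a pseudokinase that dampens ATF4 and AKT, had 60.2, 53.8 and 55.7 CPM and 31.4 and 32.3 CPM (-0.72 ± 0.22 (SE), adjusted p = 0.0298), with 43.8 and 41.1 CPM under RANKL, and the adjusted p of its lost calls was 0.0593 to 0.159. SESN2 fell by 0.97 on the log2 scale. PPP1R15A, the feedback subunit of the eIF2 phosphatase, had an estimate of -0.22 ± 0.20 and was not called.

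SLC7A11, the cystine import subunit of system xc-, was at 29.6, 28.7 and 29.8 CPM in mono-culture, 3.85 and 3.7 CPM with MG63 and 15.4 and 17.1 CPM with RANKL (-2.84 ± 0.15 (SE), adjusted p = 1.19e-08 against mono-culture). The estimated counts behind these levels were 742, 686 and 961 in mono-culture and 58.3 and 43.6 with MG63. It had the largest fold change of the 35 members here, and the MG63 level was also below both RANKL mono-cultures. ASNS, whose promoter carries the CARE match, was at 306, 282 and 309 CPM, 120.0 and 122 CPM and 155 and 171 CPM in the same order (-1.20 ± 0.072 (SE), adjusted p = 5.88e-08). PHGDH was at 173, 158 and 167 CPM in mono-culture, 75.5 and 83.4 CPM with MG63 and 108 and 97.95 CPM with RANKL (log2 fold change -0.95). For both enzymes the RANKL mono-cultures lay between the others. SLC3A2, the heavy chain shared by both transporters (-0.87), PSAT1, the next step of serine synthesis (-0.76), and MTHFD2, the mitochondrial folate enzyme (-0.73), fell as well.

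**Figure D1:**
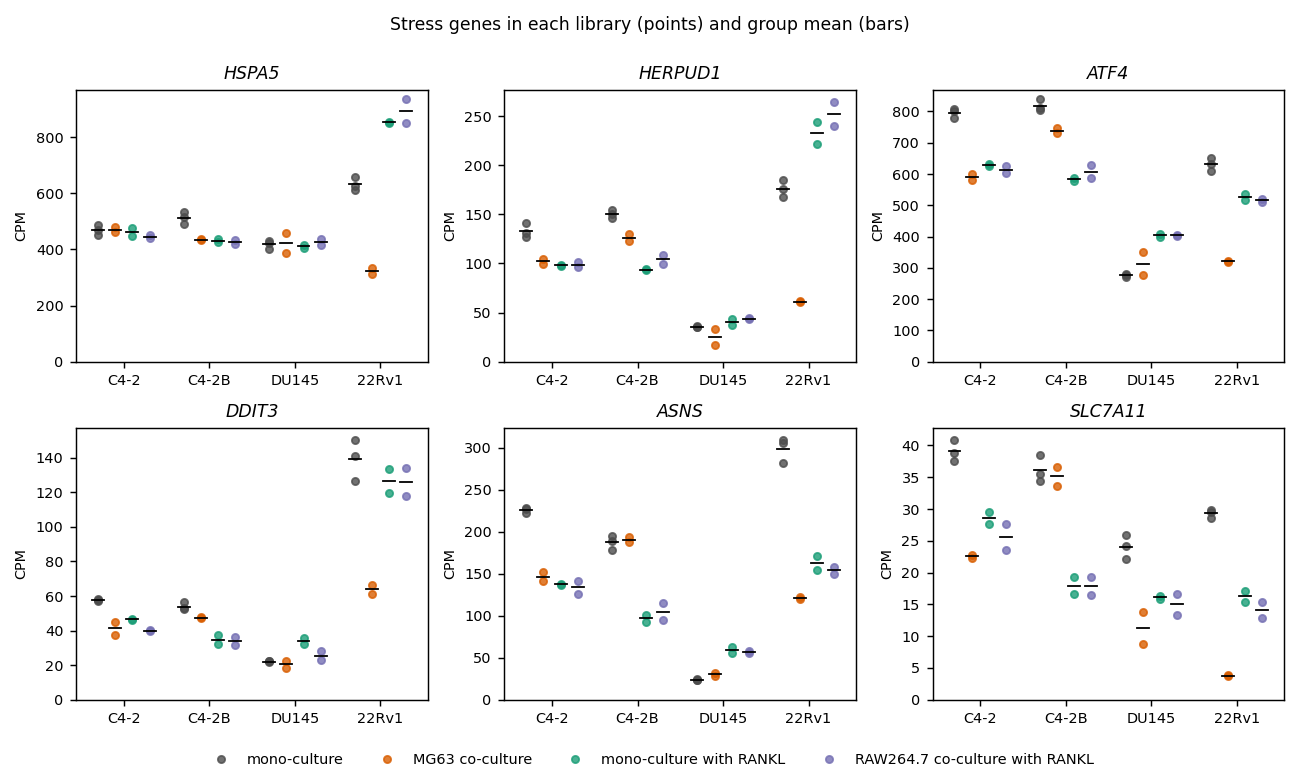
Level in CPM (linear axis) of HSPA5, HERPUD1, ATF4, DDIT3, ASNS and SLC7A11 in each of the 36 libraries, by line and culture; points are libraries and bars the group means. In 22Rv1 the MG63 libraries lie below all mono-cultures for all 6 genes (HSPA5 333 and 313 CPM against 611 to 659.5 CPM), and in DU145 ASNS lies highest in the cultures with RANKL.

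Across the 36 members, CHAC1 included, 35 had lower CPM in every MG63 library than in every mono-culture library of 22Rv1, where this held for 44.6% of all genes. Against the mono-cultures with RANKL it held for 33 members and for 39.2% of genes. Markers of mesenchymal cells moved with this comparison: the summed level of 10 was 52.1 to 54.5 CPM with MG63, against 35.6 to 39.4 CPM in mono-culture and 36.7 to 39.2 CPM with RANKL. TWIST1 made up most of it (42.13 CPM with MG63, 28.96 without), while COL1A1 was at 4.2 and 2.62 CPM and SPARC at 0.0581 and 0.133 CPM, and the part of these markers in the members' fall was not tested.

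The fall in 22Rv1 was also seen against the RANKL mono-cultures, but in fewer members, with 1 of the 6 synthesis genes called. With that control 19 of 35 members fell, where 7.7% of all genes were called, 3.87% higher and 3.83% lower, with 7 members down more than 2-fold (1.02% of all genes), and the median was -0.54 against 0.0055 for all genes. Chaperones again fell in 10 of 13 and degradation genes in 3 of 3, and the same held for 3 of 3 transporters, but for 1 of 6 synthesis genes. HSPA5 (-1.33 ± 0.088 (SE), adjusted p = 1.96e-05), PDIA4 (-1.13 ± 0.081) and HERPUD1 (-1.86 ± 0.20) had larger falls than against the first control, and SLC7A11 (-2.03 ± 0.19), ATF4 (-0.65 ± 0.10) and ASNS (-0.36 ± 0.088) smaller ones. Both controls called 18 members lower. MANF, TRIB3, SESN2, STC2, PSAT1, PHGDH, SHMT2, PSPH and MTHFD2 were called with the first control alone and CALR with the second alone, and both sets of estimates share the MG63 libraries.

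**Figure D2:**
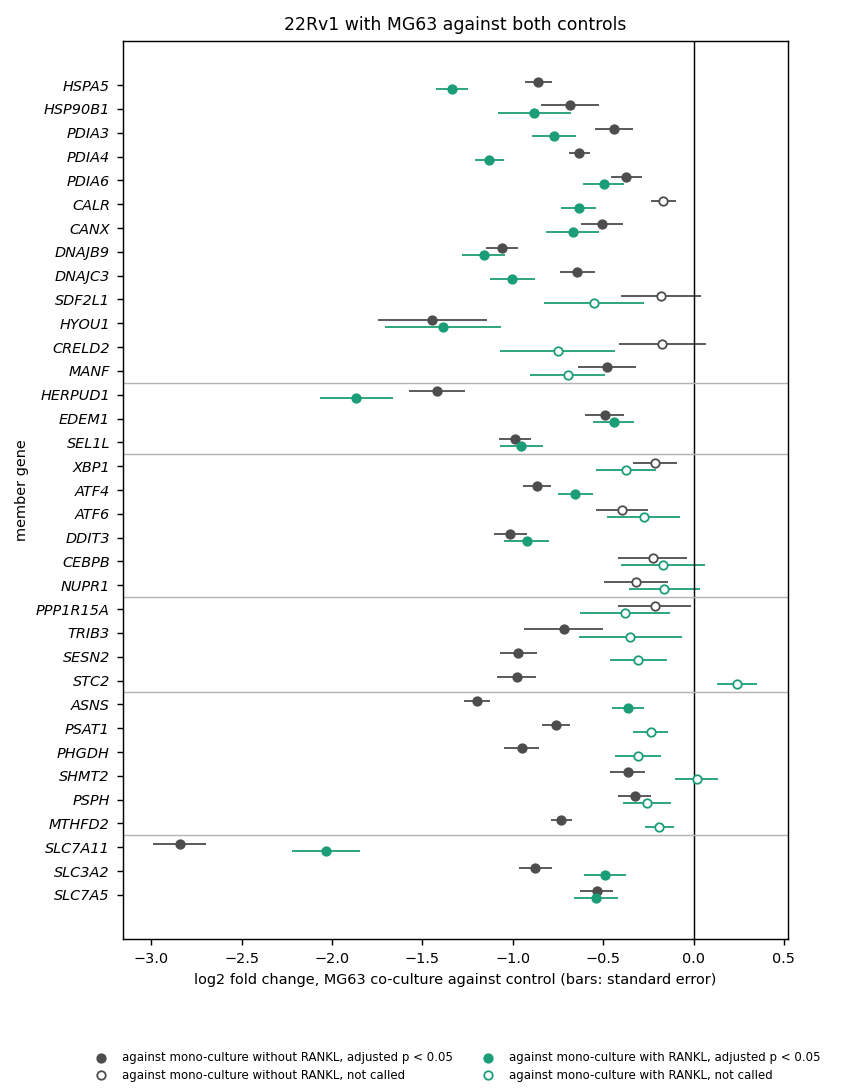
Log2 fold change (± SE) of 35 members in 22Rv1 with MG63, against mono-cultures without RANKL and against mono-cultures with RANKL; filled points have an adjusted p under 0.05. All 35 estimates lie below 0 with the first control, while STC2 (0.24) and SHMT2 lie above 0 with the second.

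In C4-2 with MG63 the called members were of the transcription factors, effectors, synthesis genes and transporters, with SEL1L from the degradation arm and none of the 13 chaperones. Of the 35 members 11 fell and the others were not called, where 10.1% of all genes were called, 5.3% higher and 4.79% lower (median -0.24, all genes -0.0085). STC2 had 90.4, 98.9 and 81.7 CPM without and 42.17 and 43.4 CPM with MG63 (-0.97 ± 0.089 (SE), adjusted p = 5.37e-06), and ASNS 228, 227 and 222 and 141 and 152 CPM (-0.52 ± 0.07 (SE), adjusted p = 0.000169). SESN2 (-0.69), SLC7A11 (-0.68), PSAT1 (-0.48), SLC3A2 (-0.42), PHGDH (-0.40) and DDIT3 (-0.37) made up the rest of the larger falls, and ATF4 (-0.32), MTHFD2 (-0.37) and SEL1L (-0.33) fell too. HSPA5 had an estimate of 0.11 ± 0.072 (adjusted p = 0.387), XBP1 of 0.27 ± 0.12 and TRIB3 of -0.63 ± 0.21, none of them called. Against the RANKL mono-cultures 3 members fell, where 4.7% of all genes were called, 2.25% higher and 2.45% lower, and SLC3A2 alone was called with both controls, while ASNS had an estimate of 0.11. With library totals in place of TMM 18 members fell, where 15.7% of all genes were called, 3.47% higher and 12.2% lower. Without replicate 2 of the MG63 co-cultures 6 members were called, where 4.53% of all genes were called, 2.66% higher and 1.87% lower. Of the 5 fits that left out 1 library, SEL1L lost its call in 4, DDIT3, PHGDH and ATF4 each in 2 and SLC3A2 in 1.

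C4-2B showed the fewest calls with MG63, 2 members higher and 4 lower, where 7.41% of all genes were called, 3.52% higher and 3.89% lower (median -0.095, all genes -0.0017). CEBPB, a bZIP partner of ATF4, rose by 0.67 and SLC7A5 by 0.34 on the log2 scale, and both calls were lost whichever of the 5 libraries was left out (adjusted p 0.0844 to 0.177 and 0.0521 to 0.183). STC2 (-0.49), SEL1L (-0.47), DNAJB9 (-0.44) and PDIA3, a glycoprotein disulfide isomerase (-0.38), fell, the last with its call lost in 4 of these 5 fits and SEL1L in 1. HSPA5 (-0.18 ± 0.073), ATF4 (-0.087 ± 0.074), DDIT3 (-0.12 ± 0.092), XBP1 (0.31 ± 0.12), TRIB3 (0.016 ± 0.21) and ASNS (0.083 ± 0.069) were not called. With the RANKL control, STC2 (0.45), ASNS (0.95), PSAT1 (0.80), SLC7A11 (0.94) and SLC7A5 (0.82) rose, where 3.03% of all genes were called, 1.8% higher and 1.23% lower, so STC2 was called in opposite directions by the controls, and CEBPB, SEL1L, DNAJB9 and PDIA3 were not called with the second. Leaving out single libraries left 2 to 4 calls with the first control, 2 without MG63 replicate 2, where 3.69% of all genes were called, and 3 without MG63 replicate 1, mono-culture replicate 2 or mono-culture replicate 3, where 2.11%, 5.2% and 4.94% were.

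DU145 moved in both directions with MG63, and some of its calls were lost without replicate 2. With both replicates 9 members rose and 7 fell, where 30.5% of all genes were called, 15.2% higher and 15.3% lower (median 0.087, all genes -0.062). CEBPB was at 55.0, 60.2 and 51.7 CPM in mono-culture and at 98.9 and 193 CPM with MG63 (1.46 ± 0.17 (SE), adjusted p = 6.34e-05). SDF2L1, a component of the HSPA5 chaperone complex, was at 48.6, 41.1 and 41.2 CPM and at 52.4 and 131 CPM (1.14 ± 0.22 (SE), adjusted p = 0.00203). In each gene the second co-culture was far above the first. TRIB3 (0.83 ± 0.22), CRELD2, a secreted ER stress protein (0.74 ± 0.25), PHGDH (0.59 ± 0.10), XBP1 (0.45 ± 0.13), ASNS (0.41 ± 0.075) and ATF4 (0.25 ± 0.074) rose with both replicates, and SLC7A11 (-1.003 ± 0.13), EDEM1 (-0.60 ± 0.11), DNAJB9 (-0.59 ± 0.094) and SLC7A5 (-0.54 ± 0.089) fell. Without replicate 2, 3 members rose and 10 fell, where 15% of all genes were called, 7.21% higher and 7.8% lower: CEBPB was at 0.91, PHGDH at 0.35 and ASNS at 0.34, while SDF2L1 (0.34), ATF4 (0.09), TRIB3 (0.06) and XBP1 (0.05) were not called and CRELD2 was called lower (-0.22). Without replicate 1, 16 rose and 12 fell, where 54.9% of all genes were called, 23.5% higher and 31.4% lower. CRELD2 lost its call or changed sign in 4 of the 5 fits that left out 1 library and ATF4 in 2. SLC7A11 had 22.1, 25.9 and 24.2 CPM in mono-culture and 13.7 and 8.85 CPM with MG63, lower in both co-cultures, and was at -0.73 without replicate 2, where EDEM1 (-0.44), DNAJB9 (-0.64) and SLC7A5 (-0.35) also fell. HSPA5 (0.087 ± 0.072) and DDIT3 (-0.023 ± 0.10) were not called. Against the RANKL mono-cultures 4 members rose and 12 fell, where 22.8% of all genes were called, 11.6% higher and 11.2% lower, and ASNS (-0.98), PHGDH (-1.09) and ATF4 (-0.37) were lower there, while TRIB3 (0.062), CRELD2 (0.56) and XBP1 (0.27) were not called. Without replicate 2 that control gave 2 higher and 14 lower, where 22.6% of genes were called, with ASNS at -1.05, PHGDH at -1.33 and ATF4 at -0.54, while SLC7A11 (-0.23) and EDEM1 (-0.19) were not called.

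**Figure D3:**
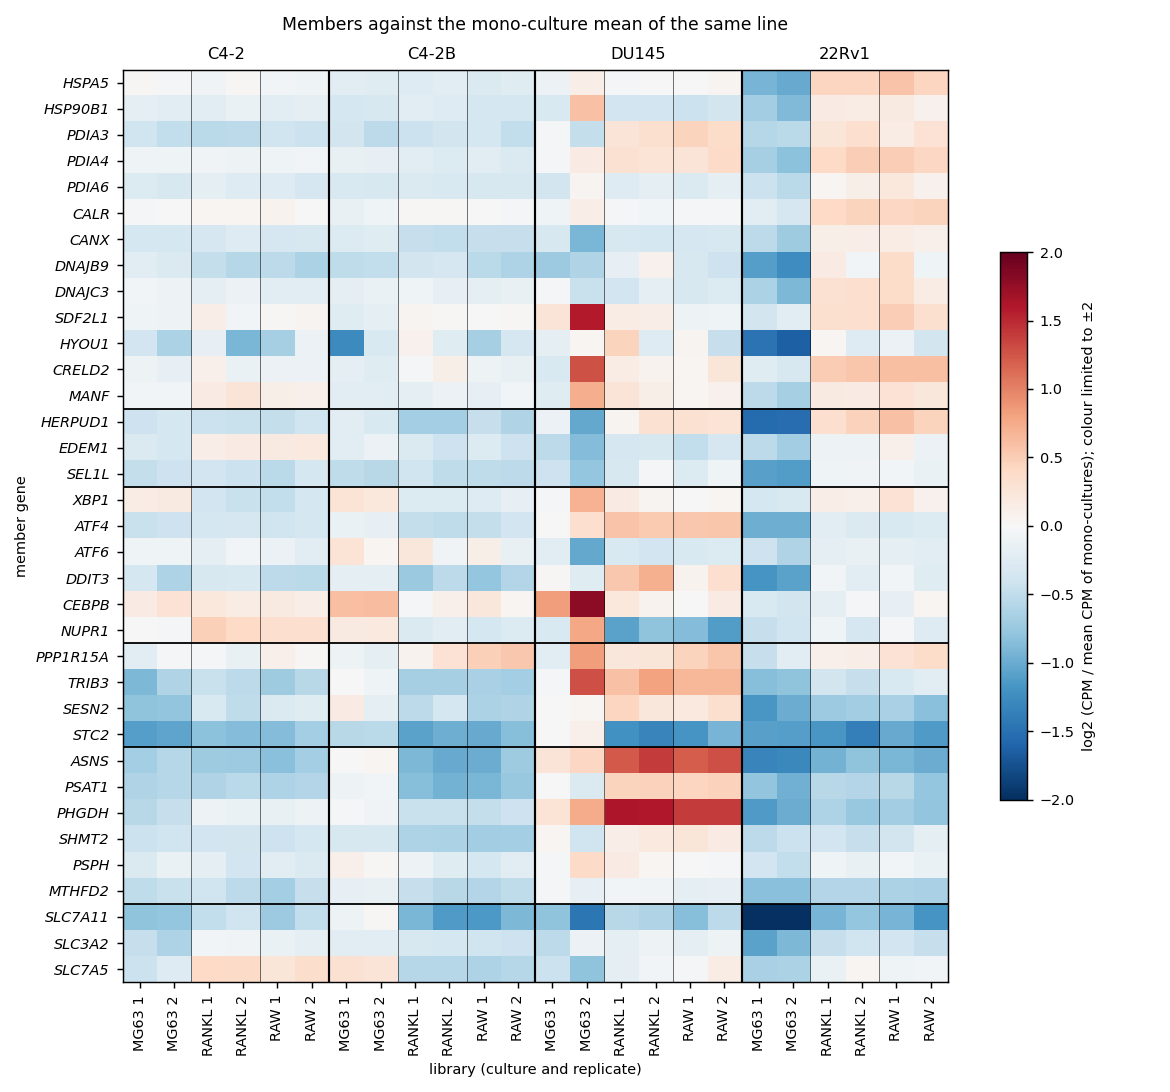
Log2 ratio of each library's CPM to the mean of its line's mono-cultures without RANKL, for 35 members (ordered by arm) in the 24 other libraries, with colours limited at -2 and 2. The 22Rv1 libraries with MG63 are below 0 across the arms, replicate 2 of DU145 with MG63 differs from replicate 1, and STC2 is below 0 in the cultures with RANKL of all 4 lines.

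The MG63 effect differed between the lines when the difference itself was tested. Each side of LPCa minus BPCa is 2 lines, and C4-2B is a subline of C4-2, so its test measures the spread between libraries and not that between lines. In it 10 members had a more negative effect in the mean of the LPCa lines, where 9.85% of all genes were called, 4.99% higher and 4.85% lower. Of these, HSPA5 was called lower in 22Rv1 (-0.86) and was not called in DU145. The largest differences were in SLC7A11 (-1.59 ± 0.12), HERPUD1 (-0.68 ± 0.15) and SLC7A5 (-0.59 ± 0.088). These were at -1.58, -1.51 and -0.56 with the RANKL control. The count was 15 without DU145 replicate 2 with MG63, where 12.7% of genes were called, and 23 without replicate 1, of which 8 were higher, where 43.7% were called. It was 6 without C4-2B replicate 1 with MG63 and 6 without 22Rv1 replicate 2 with MG63, where 6.79% and 5.87% of genes were called. It was 17 with the RANKL control, of which 1 was higher, where 8.71% of genes were called, 3.77% higher and 4.94% lower, and it was 27 with that control and without DU145 replicate 2, where 19.6% were called. In a comparison chosen after the values were seen, 22Rv1 against the mean of the other lines, 21 members had a more negative effect in 22Rv1, where 7.75% of all genes were called, 4.8% higher and 2.95% lower, and 28 without DU145 replicate 2, where 20.2% were called. The difference was -2.29 ± 0.16 for SLC7A11, -1.19 ± 0.082 for ASNS, -1.13 ± 0.17 for HERPUD1, -0.87 ± 0.085 for HSPA5 and -0.82 ± 0.087 for ATF4, and none of these lost its call when 1 library was left out. Against the RANKL mono-cultures the difference was -2.07 ± 0.21 for SLC7A11, -0.39 ± 0.10 for ASNS (adjusted p = 0.048), -1.80 ± 0.23 for HERPUD1, -1.35 ± 0.10 for HSPA5 and -0.61 ± 0.11 for ATF4, so that of ASNS was far smaller and those of HERPUD1 and HSPA5 larger. With that control and without DU145 replicate 2, ASNS was at -0.37 and HERPUD1 at -1.93. With the RANKL control 16 were more negative, where 5.54% of all genes were called, 3.12% higher and 2.42% lower, and 12 were so with both controls. Without DU145 replicate 2 that control gave 25, where 21.6% of genes were called. Over the mean of the 4 lines, 23 members fell and 2 rose with MG63, where 37.5% of all genes were called, 18.1% higher and 19.3% lower, with a median of -0.24 against -0.022. HSPA5 (-0.21 ± 0.036), ATF4 (-0.26 ± 0.037), DDIT3 (-0.38 ± 0.047) and ASNS (-0.30 ± 0.035) fell, XBP1 (0.20 ± 0.062) rose, and TRIB3 (-0.13 ± 0.11) was not called. In edgeR the XBP1 call was lost with library totals in place of TMM (0.12, adjusted p = 0.145) and without the count filter (0.17, adjusted p = 0.0526). Against the RANKL mono-cultures 16 fell and 2 rose, where 12.8% of all genes were called, 6.22% higher and 6.57% lower. PDIA6, CANX, XBP1, SESN2, ASNS, PSAT1, SHMT2 and MTHFD2 were called with the first control alone, CALR with the second alone, and STC2 was called in opposite directions. Without DU145 replicate 2, 27 fell and 2 rose with the first control, where 42.6% of genes were called, and 24 fell and 3 rose with the second, where 26.1% were.

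Neighbouring pathways in 22Rv1 with MG63 were read from lists of genes that are no members, to be set against the 11.2% of all genes called higher and 9.18% called lower. Of 25 further genes of the ATF4 program 18 fell (median -0.65), with NIBAN1 (-1.33), ALDH1L2, a mitochondrial folate enzyme (-1.22), and BCAT1, which transaminates branched-chain amino acids (-1.18), falling most. Of 12 cytosolic tRNA synthetases 11 fell (median -0.48), among them SARS1 (-0.89), MARS1 (-0.75) and CARS1 (-0.64). Of 25 further ER folding and degradation genes 2 rose and 9 fell (median -0.16), with DERL3, an ER retrotranslocation protein, at -0.98. Of 12 cytosolic heat shock genes 6 rose and 0 fell (median 0.28), with HSPA1A at 1.25, HSPA1B, its near-identical copy whose reads may be shared with it, at 0.98, and HSPB1 at 0.94. The summed level of the 12 was 8187 to 8374 CPM with MG63, 8290.0 to 8623 CPM in mono-culture and 7603 to 7747 CPM with RANKL, so it was not higher with MG63 than in the mono-cultures without RANKL. None of the 10 genes of the sensors and the eIF2 phosphatase was called by edgeR, with 0 at an unadjusted p under 0.05 (median -0.056). With the RANKL control, where 3.87% of genes were called higher and 3.83% lower, the falls came to 4 of 25 in the ATF4 program, 5 of 12 among the synthetases and 6 of 25 in ER folding, and 1 of 12 heat shock genes rose.

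XBP1 also reports on IRE1, which cuts 26 bases out of its transcript, and the table held both forms. The stretch annotated as removed lies at chr22:28796122-28796147 of GRCh38 on the minus strand, in exon 4 of XBP1 (GENCODE annotation). It is in capitals in the unspliced form below, with 10 bases on each side. A CA stands just before it and another at its end, so removal from the earlier CA onwards leaves the same joined sequence. The capitals therefore do not place the cuts of IRE1.
Unspliced XBP1: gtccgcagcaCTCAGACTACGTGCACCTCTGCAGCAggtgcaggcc
Spliced XBP1: gtccgcagcaggtgcaggcc

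Of the 6 XBP1 transcripts in the table, 1 holds the spliced junction, 4 hold the removed bases and 1 holds neither stretch. The spliced share is the percentage of a library's estimated counts over all 6 that kallisto gave to the spliced one. Leaving the transcript with neither stretch out of the total moved the share most in replicate 2 of DU145 with MG63, from 32.8 to 33.7%. In mono-culture the spliced share was 9.59, 12.5 and 9.54% in C4-2, 7.7, 10.3 and 13.7% in C4-2B, 10.8, 4.67 and 1.87% in 22Rv1, and 0% in all 3 libraries of DU145. That 0 is an assignment by kallisto, the number of reads that covered the junction is unknown from these values, and so no upper limit is given for it. The mean was 2.89% in LPCa and 10.6% in BPCa (difference -7.67 points, exact permutation test over libraries, two-sided, p = 0.0108, adjusted over 4 comparisons 0.0433), lost in 8 of the 12 tests that left out 1 library. That test exchanges libraries as if they were independent, but there are only 2 lines a side. An exact permutation of the line means gave p = 0.333, the smallest that 2 lines against 2 can give. The line means could therefore not have passed, and a difference between the line types is neither called nor excluded. The split between the forms is an estimate of the quantification tool, and the replicates of 22Rv1 alone ran from 1.87 to 10.8%. With MG63 the share was 15.1 and 13.1% in C4-2, 10.9 and 8.99% in C4-2B, 4.42 and 32.8% in DU145 and 2.61 and 6.16% in 22Rv1. The mean over lines was 5.04 points above mono-culture (exact permutation within lines, p = 0.0838, adjusted 0.112), and 1.49 points without DU145 replicate 2, which held the 32.8%. Within DU145 the first RANKL mono-culture was at 9.02% and the first RAW264.7 co-culture at 10.8%, and the second of each had under 1 spliced count. Mono-cultures with RANKL were 3.65 points above those without (p = 0.0255, adjusted 0.051, exact permutation), and RAW264.7 co-cultures differed from RANKL mono-cultures by -0.54 points (p = 0.784, exact permutation). The HSPA5 and HERPUD1 falls of 22Rv1 with MG63 stood beside a spliced share of 2.61 and 6.16%, inside the range of its mono-cultures.

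**Figure D4:**
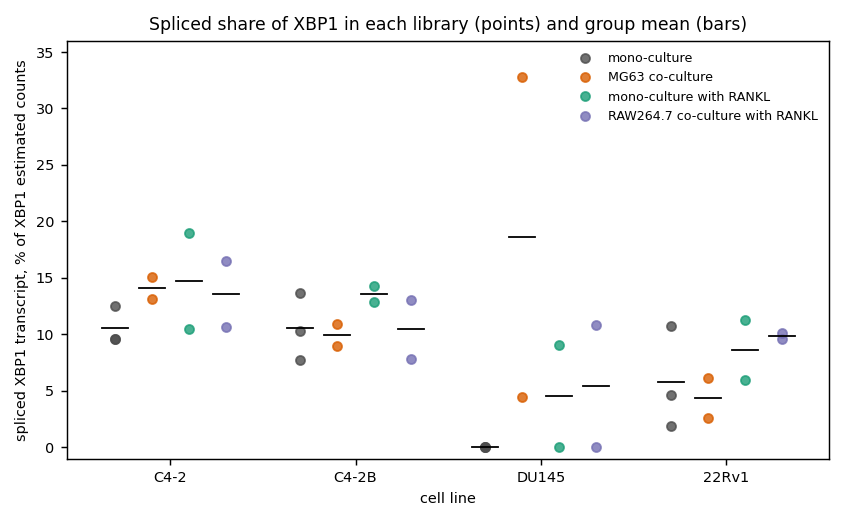
Spliced XBP1 transcripts as a percentage of all XBP1 estimated counts in each library, by line and culture; points are libraries and bars group means. DU145 is at 0% in its 3 mono-cultures without RANKL, and its 2 libraries differ widely within each other culture (4.42 and 32.8% with MG63).

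Mono-cultures with RANKL were compared with those without, which carries the depth difference named above. STC2 fell in all 4 lines: from 90.4, 98.9 and 81.7 to 51.2 and 49.8 CPM in C4-2, from 80.0, 91.2 and 78.7 to 39.6 and 42.25 CPM in C4-2B, from 94.6, 96.8 and 102 to 42.18 and 39.3 CPM in DU145, and from 16.6, 14.7 and 15.9 to 7.01 and 6.12 CPM in 22Rv1. Its mean log2 fold change was -1.02 ± 0.05 (SE), adjusted p = 1.55e-13. The groups did not overlap in any line, where 34.5% (22Rv1) to 46.9% (C4-2) of all genes were lower in every library with RANKL. Over the mean of the lines 5 members rose and 11 fell, where 37.3% of all genes were called, 17.2% higher and 20.1% lower (median -0.062, all genes -0.023).

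In DU145, 4 of the 6 genes of amino acid synthesis and one-carbon metabolism rose with RANKL, while of the 3 transporters SLC7A11 fell and the others were not called. In all, 10 members rose and 4 fell, where 32.5% of all genes were called, 16.9% higher and 15.6% lower. PHGDH was at 31.4, 29.9 and 32.4 CPM without and 95.6 and 94.8 CPM with RANKL (1.71 ± 0.087 (SE), adjusted p = 2.75e-13), and ASNS at 23.1, 25.2 and 23.5 and 55.9 and 63.4 CPM (1.42 ± 0.083 (SE), adjusted p = 3.84e-12). ATF4 was at 278, 272 and 279 and 409.5 and 399 CPM (0.65 ± 0.069 (SE), adjusted p = 8.82e-08), and DDIT3 at 21.7, 22.2 and 22.3 and 32.1 and 35.9 CPM (0.73 ± 0.10 (SE), adjusted p = 3.06e-06). None of these 4 genes overlapped between the groups. Of all genes, 23.1% were likewise higher in every library with RANKL than in every mono-culture without, and 45.9% lower. In the RAW264.7 co-cultures, which also held RANKL, the levels were 82.3 and 82.2 CPM for PHGDH and 55.4 and 58.4 CPM for ASNS, again above every mono-culture without RANKL. TRIB3 (0.80) and PSAT1 (0.56) rose too, while STC2 (-1.16), NUPR1 (-0.83) and SLC7A11 (-0.48) fell, with the call of NUPR1 lost in 2 of the 5 fits that left out 1 library (adjusted p 0.0599 to 0.121). CHAC1, below the filter, was at 0.518, 0.499 and 0.99 CPM without and 4.67 and 3.85 CPM with RANKL in DU145, and a fit without the filter, chosen after its values were seen, gave 2.73 ± 0.81 (SE), adjusted p = 0.0189. HSPA5 (0.078 ± 0.067) and XBP1 (0.21 ± 0.12) had adjusted p-values of 0.407 and 0.179.

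In 22Rv1 with RANKL 6 members rose and 10 fell, where 17.7% of all genes were called, 8.9% higher and 8.85% lower (median -0.069). By arm, 5 rose and 0 fell of 13 chaperones and folding genes (median 0.31), 1 rose and 0 fell of 3 degradation genes (-0.053), 0 rose and 1 fell of 6 transcription factors (-0.12), 0 rose and 2 fell of 4 effectors (-0.53), 0 rose and 5 fell of 6 synthesis genes (-0.55) and 0 rose and 2 fell of 3 transporters (-0.40), and the difference between arms was not tested. The risers were PDIA4 (0.48 ± 0.053), HSPA5 (0.46 ± 0.067), CALR (0.45 ± 0.061), HERPUD1 (0.43 ± 0.11), DNAJC3 (0.34 ± 0.078) and PDIA3 (0.31 ± 0.085). Those that fell were STC2 (-1.24 ± 0.12), ASNS (-0.85 ± 0.081), SLC7A11 (-0.82 ± 0.12), SESN2 (-0.68), PHGDH (-0.66), MTHFD2 (-0.56), PSAT1 (-0.54), SLC3A2 (-0.40), SHMT2 (-0.40) and ATF4 (-0.23). DDIT3 (-0.11 ± 0.09), TRIB3 (-0.39 ± 0.19) and XBP1 (0.14 ± 0.11) were not called, and the call of ATF4 was lost in 4 of the 5 fits that left out 1 library (adjusted p 0.0642 to 0.209) and those of HERPUD1 and PDIA3 in 1 each.

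In the BPCa lines most called members were lower with RANKL. C4-2B had 19 falls, where 14.4% of all genes were called, 6.07% higher and 8.32% lower, including STC2 (-0.95 ± 0.091), SLC7A11 (-0.93 ± 0.11), ASNS (-0.87 ± 0.081), PSAT1 (-0.82 ± 0.068), HERPUD1 (-0.60 ± 0.12), TRIB3 (-0.58 ± 0.18), DDIT3 (-0.55 ± 0.10) and SHMT2 (-0.55 ± 0.08), and 12 without RANKL replicate 1, where 7.28% of all genes were called. ASNS was at 189, 196 and 179 CPM without and 101 and 93.0 CPM with RANKL. C4-2 had 13 falls and 2 rises, where 18.3% of all genes were called, 9.16% higher and 9.16% lower, with 6 calls in all without RANKL replicate 2 and 9 without replicate 1, where 9.89% and 9.49% of all genes were called. STC2 (-0.75 ± 0.09) and ASNS (-0.63 ± 0.08) led the falls of C4-2, and NUPR1 (0.52 ± 0.14) and SLC7A5 (0.47 ± 0.072) were its rises. HSPA5 was at 0.064 ± 0.067 in C4-2 and -0.17 ± 0.068 in C4-2B, and ATF4 at -0.25 ± 0.07 and -0.41 ± 0.07. XBP1 fell in C4-2 (-0.33 ± 0.11), a call that was lost whichever of the 5 libraries was left out (adjusted p 0.0742 to 0.229), while DDIT3 (-0.23 ± 0.10) and TRIB3 (-0.40 ± 0.18) were not called there, nor was XBP1 in C4-2B (-0.19 ± 0.11). Leaving out 1 of 5 libraries lost the call of TRIB3 in C4-2B in 4 fits, that of NUPR1 in C4-2 in 3 and that of ATF4 in C4-2 in 2.

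The RANKL effect of LPCa minus BPCa was higher in 15 members and lower in 2, where 16.5% of all genes were called, 9.55% higher and 6.99% lower, with ASNS at 1.04 ± 0.081 and HERPUD1 at 0.84 ± 0.12. In ASNS the 2 LPCa lines went opposite ways (1.42 in DU145 and -0.85 in 22Rv1), as they did in PHGDH, PSAT1 and ATF4. For these genes the LPCa value is a mean of unlike lines. The test measures the spread between libraries and not that between lines. For DU145 against the mean of the other lines, chosen after the values were seen, 13 were higher and 1 lower, where 23% of all genes were called, 13.1% higher and 9.91% lower, with ASNS at 2.20 ± 0.10 and PHGDH at 2.06 ± 0.10. Of the 12 tRNA synthetases 9 rose in DU145 (median 0.32), where 16.9% of all genes were called higher, while 9 fell in C4-2, 7 in C4-2B and 9 in 22Rv1, where 9.16%, 8.32% and 8.85% of all genes were called lower. Of 25 further ATF4 program genes 10 rose and 2 fell in DU145, 1 rose and 14 fell in C4-2, 0 rose and 15 fell in C4-2B and 1 rose and 16 fell in 22Rv1. The comparisons with RANKL and with MG63 share the mono-cultures without RANKL.

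RAW264.7 co-culture was compared with RANKL mono-culture, at like depth. No member was called by edgeR in any line, where 0.0174% (C4-2), 0.139% (C4-2B), 0.026% (DU145) and 0.00868% (22Rv1) of genes were called, and DESeq2 called 0 as well. At an unadjusted p under 0.05 there were 1, 3, 6 and 4 members, in the same order. The share of all genes at that unadjusted threshold is not given in this paragraph, so none of its unadjusted counts is read as an excess. Over the mean of the lines, where 0.121% of genes were called, 0 were called and 4 had an unadjusted p under 0.05, the smallest that of PPP1R15A (0.24 ± 0.055 (SE), adjusted p = 0.178). HSPA5 had an estimate of 0.019 ± 0.025, ATF4 of 0.0057 ± 0.026, DDIT3 of -0.16 ± 0.054, XBP1 of 0.02 ± 0.036, ASNS of -0.013 ± 0.046 and TRIB3 of -0.0013 ± 0.041. The members' median was -0.013 and that of all genes 0.0021. Markers of macrophages and osteoclasts, 10 genes read with a human annotation, summed to 15.7 to 68.5 CPM with RAW264.7 and to 16.98 to 71.8 CPM in RANKL mono-culture, with TYROBP at 0 in every group. For the difference of the effect between LPCa and BPCa, where 0.0781% of genes were called, 0 members were called and 1 had an unadjusted p under 0.05.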

How the data were processed

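RNA of 36 cultures was sequenced by the study as strand-specific poly-A libraries. The deposited values are estimated counts per transcript, which the authors made with kallisto and left without normalization. The labels name FastQC, kallisto and hg19, and the annotation release is not given in the sources used here. The paper's scaling with tximport is not part of these values. Samples were grouped by their labels.

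Transcripts listed more than once with identical values were used once, and transcripts were summed per gene symbol. Counts were rounded to whole numbers for testing. Genes needed a count of 100 in at least 1 library: 13437 were tested in the 20 libraries without RANKL, 11525 in the 16 with RANKL, 13454 over all 36 and 11712 with the RANKL control. CPM are counts scaled to a library total of 1000000, and the TPM scale divides by transcript length first. Fold changes come from edgeR 4.0.16 (TMM, quasi-likelihood test, R 4.3.3) with Benjamini-Hochberg adjustment over all genes tested, and a member was called at an adjusted p under 0.05. DESeq2 1.42.0 was an alternative. Scripts ran in Python 3.11.15 and were tested on simulated data. The XBP1 share was compared between cultures by exact permutation within lines, and between LPCa and BPCa by exact permutation of libraries across lines and, as added, of the line means.

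The members and lists were chosen with earlier results of these data known. Full statistics were given for at most 8 called members with the largest changes per comparison, and HSPA5, ATF4, XBP1, DDIT3, ASNS and TRIB3 were given by value, called or not, where their arm is described. At most 3 genes were named per other list.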

Additional observations from a re-analysis of the deposited data

Results flagged for a closer look

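Each result here is a member whose fold change differed between lines by the interaction term of the same edgeR fit (adjusted p under 0.05), given as a log2 difference of log2 fold changes. None was weighed for a cause. For the MG63 effect, LPCa minus BPCa, the 10 members were SLC7A11 (-1.59), HERPUD1 (-0.68), SLC7A5 (-0.59), ATF6 (-0.56), DNAJB9 (-0.54), EDEM1 (-0.39), DNAJC3 (-0.37), HSPA5 (-0.35), SEL1L (-0.35) and PDIA4 (-0.21). For the MG63 effect of 22Rv1 minus the mean of the other 3 lines, a comparison chosen after the data were seen, the 21 members were SLC7A11 (-2.29), ASNS (-1.19), HERPUD1 (-1.13), CEBPB (-1.05), PHGDH (-1.02), HSPA5 (-0.87), DDIT3 (-0.84), ATF4 (-0.82), SESN2 (-0.79), DNAJB9 (-0.67), PDIA4 (-0.66), HSP90B1 (-0.65), SLC3A2 (-0.61), DNAJC3 (-0.58), PSAT1 (-0.58), MTHFD2 (-0.57), SEL1L (-0.56), XBP1 (-0.55), STC2 (-0.54), PSPH (-0.42) and SLC7A5 (-0.39). For RANKL in mono-culture, LPCa minus BPCa, the 17 were ASNS (1.04), HERPUD1 (0.84), PDIA3 (0.73), PHGDH (0.72), TRIB3 (0.70), DDIT3 (0.70), NUPR1 (-0.68), PSAT1 (0.66), ATF4 (0.54), PDIA4 (0.52), XBP1 (0.44), DNAJB9 (0.43), SHMT2 (0.35), STC2 (-0.35), HSPA5 (0.32), SEL1L (0.28) and CANX (0.26). For RANKL in DU145 minus the mean of the other 3 lines, also chosen after the data were seen, the 14 were ASNS (2.20), PHGDH (2.06), TRIB3 (1.26), PSAT1 (1.17), DDIT3 (1.02), ATF4 (0.95), SESN2 (0.89), NUPR1 (-0.89), SHMT2 (0.68), PDIA3 (0.54), MTHFD2 (0.49), HERPUD1 (0.46), PSPH (0.33) and PDIA4 (0.29). Some of these calls were lost when 1 of 20 libraries was left out. For MG63 in LPCa minus BPCa they were PDIA4 in 10 fits, DNAJC3 in 6 (adjusted p 0.0501 to 0.0745), EDEM1 in 3 (0.0645 to 0.0746), ATF6 in 2 (0.0578 to 0.0664) and SEL1L in 1, and with the RANKL control ATF6 (adjusted p 0.378) and EDEM1 (0.188) were not called. For MG63 in 22Rv1 minus the others they were HSP90B1 in 17, XBP1 in 5 (0.0519 to 0.139), SLC7A5 in 4, PSPH in 3, STC2 in 2, DNAJC3 in 1 and CEBPB in 1, which was without 22Rv1 MG63 replicate 2 (0.0637). With the RANKL control CEBPB (0.12), MTHFD2 (0.0984), PHGDH (0.899), PSAT1 (0.146), PSPH (0.181), SESN2 (0.611), SLC3A2 (0.213), SLC7A5 (0.121) and STC2 (0.368) were not called there. For RANKL in LPCa minus BPCa the lost calls were CANX in 18, STC2 in 3 and SEL1L in 1, and in DU145 minus the others NUPR1 in 3 (0.0516 to 0.122), PSPH in 2 and HERPUD1 in 1. The comparisons of LPCa with BPCa rest on 2 lines a side. All differences under MG63 were negative, and those under RANKL were positive except for NUPR1 in both and STC2 in LPCa minus BPCa.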

How the results depend on the processing

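Member counts were recomputed with DESeq2, library totals in place of TMM, no filter on low counts, a replicate block, RANKL mono-cultures as control of MG63, and each library left out. In MG63 against mono-culture for C4-2 the count of 11 became 18 with library totals and 3 with the RANKL control, and for LPCa minus BPCa the count of 10 became 17 with the RANKL control, and the causes were not tested. Where counts moved by more than 1.5 times on leaving out 1 library, they ranged over 6 to 10 for MG63 in C4-2, 2 to 4 in C4-2B, 12 to 28 in DU145, 6 to 23 for LPCa minus BPCa, 4 to 6 for C4-2B against C4-2, 6 to 13 for RANKL in C4-2 and 12 to 17 for RANKL in C4-2B. Of these, C4-2B against C4-2 had 4 without C4-2 mono-culture replicate 1. The remaining counts moved by no more than 1.5 times, and those for RAW264.7 did not change. The share of all genes called also moved between these fits, so the ranges are not set against a common background.

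The spliced share of XBP1 ranged over 1.49 to 8.59 points for MG63, 2.52 to 4.78 for RANKL and -9.25 to -7.05 for LPCa against BPCa, and over -1.89 to 0.82 for RAW264.7, changing sign when single libraries were left out. With line means in place of libraries, chosen after the data were seen, LPCa against BPCa differed by -7.67 points (exact permutation over 2 lines a side, p = 0.333). That is the smallest p this test can give, so it could not have called a difference.

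Members reversed with the RANKL control: STC2 to 0.45 in the mean of 4 lines, 0.45 in C4-2B and 0.24 in 22Rv1, ASNS to 0.11 in C4-2 and -0.98 in DU145, PHGDH to -1.09 and ATF4 to -0.37 in DU145, and PHGDH to 0.057 for 22Rv1 minus the other lines. CRELD2 of DU145 reversed to -0.22 without MG63 replicate 2 and was at 1.33 without replicate 1. With the RANKL control and without that replicate 2, chosen after the data were seen, STC2 was at 0.44 in the mean of 4 lines, PHGDH at 0.14 for 22Rv1 minus the other lines, and in DU145 TRIB3 was at -0.72, CRELD2 at -0.42, PHGDH at -1.33, ATF4 at -0.54, XBP1 at -0.13 and ASNS at -1.05, all reversed, and the LPCa minus BPCa count was 27. Of 159 results for the members with the largest changes, DESeq2 kept 159 on their side of the threshold, library totals 156, no filter 152 and the replicate block 156. The RANKL control left 39 of the member results it could be run for on their side of the threshold, lost 20 calls and reversed 8, and leaving out single libraries lost 86 calls and reversed 1, against 1653 unchanged.

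Same-numbered samples did not deviate together (highest correlation 0.069), so the numbers do not pair them. With the replicate block 25 members were called for MG63 in the mean of 4 lines, 11 in C4-2, 5 in C4-2B, 15 in DU145 and 26 in 22Rv1, and 14 for RANKL in the mean. The share of all genes called in the blocked fits is not given here. These counts are therefore compared only with those of the main fit and not with a background.

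The lower depth of all but the plain mono-cultures limits genes with low counts. CHAC1 stayed under the count filter at both depths, with its highest count, 88.9, in C4-2B with MG63. With 2 libraries in most groups, leaving out 1 leaves a lone library that is assumed to vary like the others.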
